A study of Mus musculus with 4 samples.

Results

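The genes described here are 60 genes of G2 phase and mitosis, listed by symbol and found in the deposited table through their mouse Ensembl identifiers. All 60 were among the 55573 genes of the table, and all 60 passed the expression filter that left 15472 genes to test. The cells were SmoWT cells, mouse medulloblastoma cells of the SHH subtype on a C57BL/6 background, derived from spontaneous tumours of Ptch1+/-, Trp53-/- mice and cultured as neurospheres. Both groups therefore carried the Ptch1 and Trp53 alleles, and the groups differed in the agent given for 24 h: DMSO, the vehicle, or 0.1 μM GDC0449 (vismodegib, an inhibitor of the Hedgehog signal transducer Smoothened). Each group had 2 libraries. The labels do not say whether these came from separate cultures, so p-values measure only the spread between these libraries, which may be technical.

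A cell enters mitosis when the kinase Cdk1, bound to cyclin A or B and freed of its inhibitory phosphates by Cdc25 phosphatases, becomes active. Condensins then compact the chromosomes, kinesins build the spindle, and the spindle checkpoint holds the anaphase-promoting complex in check until every kinetochore is attached. Most of these genes are transcribed in G2 and mitosis under the MuvB complex with B-Myb (Mybl2) and Foxm1. In the developing cerebellum Hedgehog signalling drives division of granule neuron progenitors, from which medulloblastoma of this subtype arises.

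Libraries held 16329721 to 20790030 reads in genes. Gli1, the transcription factor that reports Hedgehog activity, was at 272 ± 12.9 CPM (read counts scaled to library size by the TMM method; SD, n = 2) in DMSO and 35.7 ± 4.28 CPM in GDC0449. Granule progenitor markers were present, except Barhl1, which had 34 reads in all. Of the 7 tested, 6 were higher in GDC0449 at adjusted p (edgeR) and Pax6 lower, with a median log2 fold change of 0.81. From DMSO to GDC0449, Atoh1 went from 56.7 ± 2.02 to 99.8 ± 0.957 CPM and Zic1 from 542 ± 1.88 to 640 ± 45 CPM. Summed levels of 9 postmitotic neuron markers were 883 to 941 CPM in DMSO and 1650 to 1730 CPM in GDC0449. Large parts were Tubb3, at 362 and 577 CPM, and Cntn2, at 142 and 421 CPM. Of the 9, 7 were higher at adjusted p and 2 were neither, Nhlh2 and Rbfox3, the latter at 48.2 and 45.7 CPM. Summed levels of 8 astrocyte markers were 215 to 230 CPM in DMSO and 336 to 341 CPM in GDC0449. Most of the astrocyte difference in summed level was in Slc1a2, at 78.0 and 177 CPM. Of the 6 astrocyte markers tested, 3 were higher at adjusted p, 1 lower and 2 neither, with a median log2 fold change of 0.88. Besides Slc1a2 the higher ones were Sparcl1, at 15.8 and 34.8 CPM, and Aldoc, at 7.06 and 14.8 CPM. Gja1 was lower, at 45.1 and 38.7 CPM, and Slc1a3 was neither, at 75.3 and 71.4 CPM. Aqp4 and Aldh1l1 were at 0 reads, which allows up to 0.0385 CPM each over the 4 libraries, counting error only. Markers of microglia (8 genes), endothelium and pericytes (6 genes) and fibroblasts (6 genes) summed to 0.948 to 7.44 CPM in any library, with Cdh5, Kdr and Lum at 0 reads, and 7 oligodendrocyte markers to 65.8 to 84.4 CPM with Olig1 at 0. The count column lists 0 for 546 genes whose deposited FPKM is at least 1 in every library, but all 6 markers named at 0 are at 0 in FPKM too. The part of these shifts in the differences below was not tested. In bulk RNA, fewer dividing cells and less mitotic RNA per cell cannot be told apart.

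Promoters of the members held 2 elements, which the list did not use, more often than promoters of all genes tested, though not in every member. The CHR element, at which the MuvB complex binds, was searched as TTTGAA or TTCGAA, and the box bound by NF-Y as CCAAT, both on either strand. The motifs can share no more than a single end base. RefSeq windows (GRCm38.p6, 250 bases before to 50 after a transcript start) were matched by symbol to 50 of the 60 members, in 53 windows. The stretches shown are the 100 bases before the RefSeq start of 6 members, 5′ to 3′ on the gene's strand, with the matches in capitals; they were chosen to show members that were higher or lower in GDC0449, 1 of them with no match.
Cdc20 (higher; chr4:118437344-118437443, minus strand): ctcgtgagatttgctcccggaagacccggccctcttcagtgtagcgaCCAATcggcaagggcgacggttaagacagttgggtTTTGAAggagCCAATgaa
Ccnb2 (higher; chr9:70421555-70421654, minus strand): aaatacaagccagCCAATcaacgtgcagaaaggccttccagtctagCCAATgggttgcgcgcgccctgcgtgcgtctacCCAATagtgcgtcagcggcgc
Cdk1 (lower; chr10:69352913-69353012, minus strand): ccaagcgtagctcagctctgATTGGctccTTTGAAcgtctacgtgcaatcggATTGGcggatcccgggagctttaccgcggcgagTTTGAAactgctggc
Kif11 (lower; chr19:37376282-37376381, plus strand): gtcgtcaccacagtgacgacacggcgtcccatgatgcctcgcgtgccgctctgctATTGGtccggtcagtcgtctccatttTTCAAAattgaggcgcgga
Top2a (lower; chr11:99024190-99024289, minus strand): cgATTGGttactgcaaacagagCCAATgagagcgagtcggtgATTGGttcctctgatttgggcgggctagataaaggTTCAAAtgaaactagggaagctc
Birc5 (lower; chr11:117849137-117849236, plus strand): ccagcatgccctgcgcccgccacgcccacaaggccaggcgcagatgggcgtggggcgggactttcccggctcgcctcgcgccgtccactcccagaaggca

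In Cdc20 the CHR match began 18 bases before the start, in Kif11 19 and in Top2a 23 bases. Of the 53 member windows, 37 (69.8%) held a CHR match, against 19.2% of all 32851 windows of that length and 13.9% of the 13638 windows of genes tested. A CCAAT match was in 37 member windows as well, and in 37.4% and 37.8% of the respective backgrounds. Both were present in 32 (60.4%), against 7.52% and 5.74%. The 4 members that were higher in GDC0449 all had both elements in the full window. Of the 20 matched members that were lower, 14 had a CHR match and 12 had both, and of the 26 that were neither, 17 and 14. A match is a stretch of letters, not a shown binding site.

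**Figure D1:**
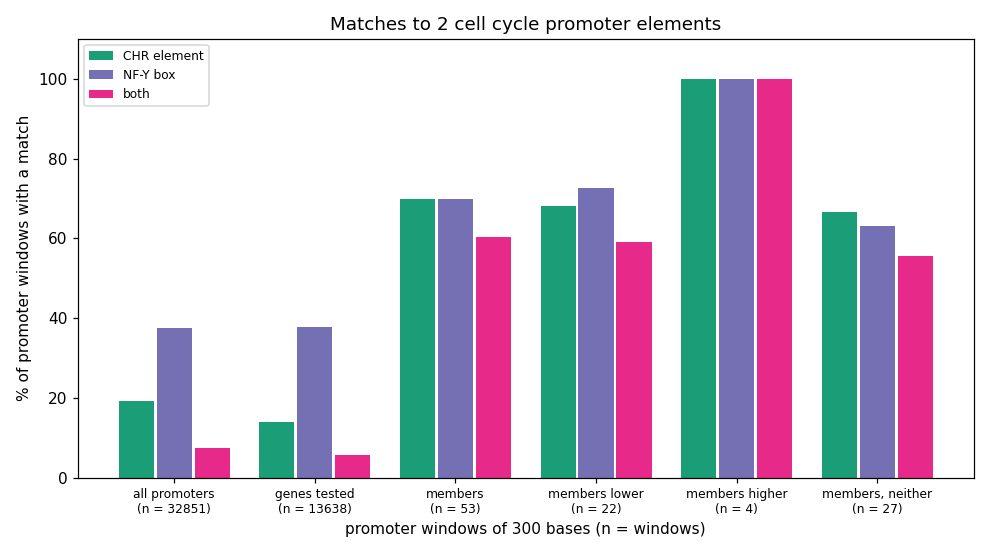
Share of 300-base promoter windows (vertical axis, percent) with a match to the CHR element, the NF-Y box or both, in all promoters, promoters of genes tested, and windows of members by their direction in GDC0449. Both elements together were in 60.4% of member windows and 7.52% of all windows.

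No member passed the study's thresholds of an adjusted p under 0.05 with a fold change over 1.5, while 12.4% of all genes tested did (3.80% lower, 8.62% higher), and of the 6504 genes within the members' range of level 3.12% were lower and 3.87% higher. DESeq2 and limma-voom also put 0 members past both thresholds. With edgeR 30 of the 60 had an unadjusted p under 0.05, as did 6786 of all 15472 genes tested and 3527 of those 6504. Without the fold threshold, 24 members were lower and 4 higher in GDC0449 by the edgeR quasi-likelihood test with Benjamini-Hochberg adjustment over all genes, and 32 were neither. The lower members make up 40.0%, against 18.0% of all genes tested, and the higher ones 6.67%, also against 18.0%. Read counts set how often small differences pass: among the 6504 genes within the members' own range of level (31.4 to 886 CPM), 46.3% passed, 29.4% lower and 16.9% higher; of the members 46.7% passed. The median log2 fold change of the members was -0.11, that of these 6504 genes -0.06 and that of all genes 0.01.

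The differences were small throughout. The 24 lower members were 1.13-fold to 1.38-fold lower, and the 4 higher ones 1.14-fold to 1.28-fold higher. In 59 of the 60 members the 95% interval of the fold change lay wholly inside 1.5-fold in either direction, against 56.7% of all genes tested and 87.5% within the members' range of level. Mybl2 was the exception. Both GDC0449 libraries lay below both DMSO libraries in 34 members and above them in 8, and the groups overlapped in 18; over all genes tested 32.2% were below and 33.6% above, and within the members' range of level 45.7% and 27.3%. The summed level of the 60 members was 9580 and 9640 CPM in DMSO and 8950 and 9010 CPM in GDC0449.

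**Figure D2:**
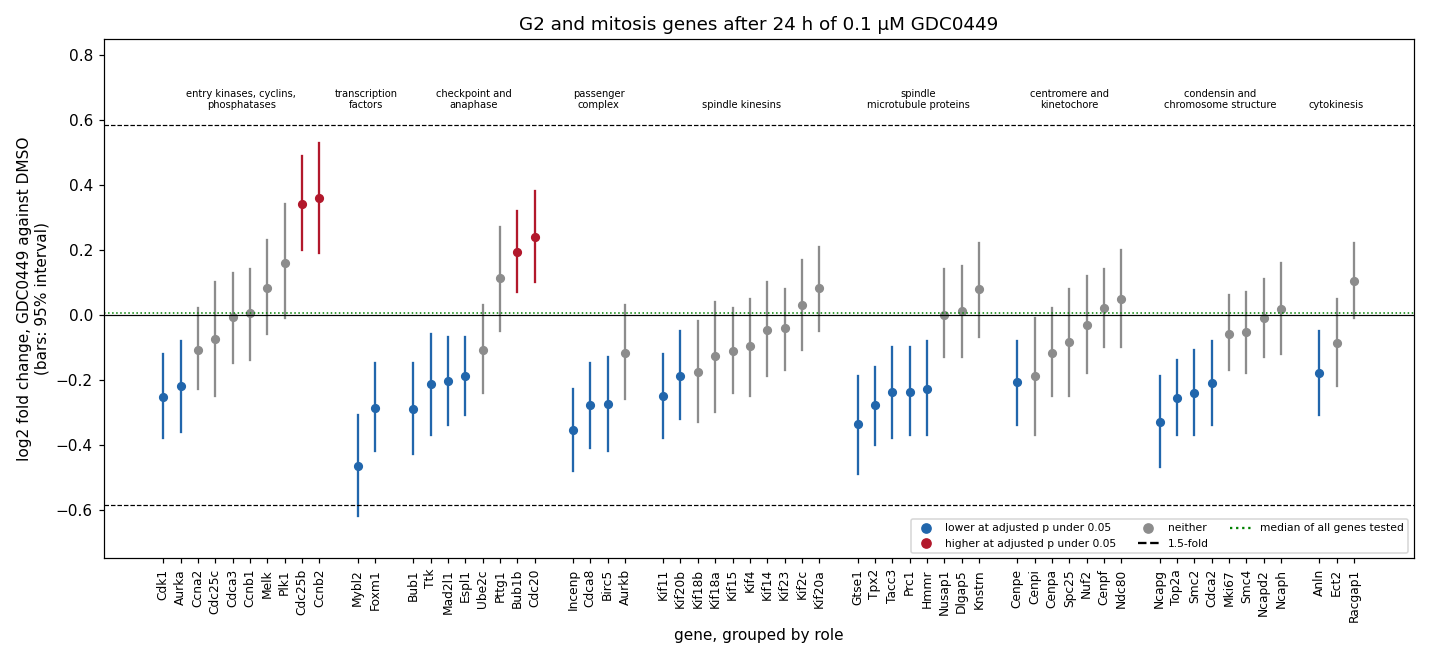
Log2 fold change of each of the 60 members, GDC0449 against DMSO, with its 95% interval (bars), grouped by role. All points lie between the dashed lines at 1.5-fold, which the interval of Mybl2 crosses, with the lowest at Mybl2 (-0.47) and the highest at Ccnb2 (0.36).

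The calls rested on having all 4 libraries, although the directions did not change. Of the 28 members that passed, 3 still passed without DMSO replicate 1 and 3 without DMSO replicate 2, and 11 and 17 without GDC0449 replicate 1 and 2. All 28 kept their sign in each of these fits, and none passed in all 4. The members that passed in 3 of the 4 fits were Mybl2, Bub1, Incenp, Tpx2 and Ncapg. Calls over all genes dropped as well, from 35.9% of genes to 8.95% and 8.24% without a DMSO library and 22% and 24.2% without a GDC0449 library. Without a DMSO library 5% of the members passed, so that their share lay under that of all genes. On log2 of the deposited FPKM plus 1, 8 of the 28 passed (Mybl2, Incenp, Birc5, Cdca8, Gtse1, Prc1, Ccnb2 and Cdc25b), and all 28 had the same sign. On that scale 13.3% of the members passed, near the 12.2% of all genes.

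**Figure D3:**
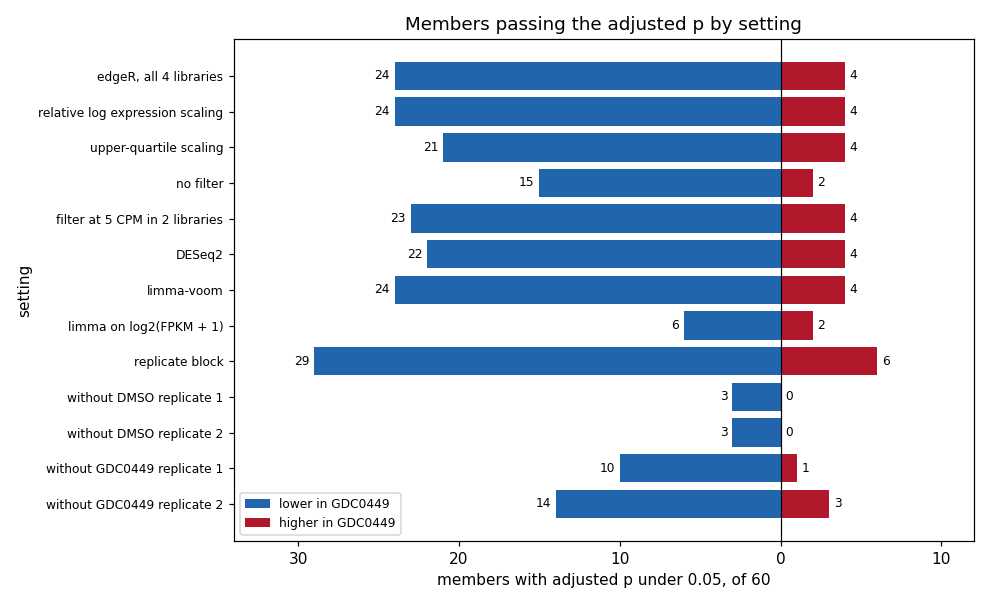
Number of the 60 members with an adjusted p under 0.05 (horizontal axis; lower to the left, higher to the right) under each setting (vertical axis). With edgeR on all 4 libraries 24 were lower and 4 higher; without either DMSO library 3 were lower and 0 higher.

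Both transcription factors of the G2 and mitosis program were lower. Mybl2 (ENSMUSG00000017861, chromosome 2, 163054687 to 163084688, GRCm38), which encodes the MuvB partner B-Myb, stood at 77.5 and 67.5 CPM in the DMSO libraries and at 53.3 and 51.8 CPM in the GDC0449 libraries. This was the lowest fold change of the list, at a log2 of -0.47 (SE 0.08, 95% interval -0.62 to -0.31, adjusted p = 2.4e-06). Without DMSO replicate 1 its adjusted p was 0.0548. Foxm1, the forkhead factor that acts with it, stood at 112 and 110 CPM in DMSO and at 95.3 and 87.0 CPM in GDC0449, with a log2 fold change of -0.29 (adjusted p = 0.000740). Its deposited FPKM differed more between replicates: 20.8 and 19.2 in DMSO against 18.9 and 11.7 in GDC0449, so that the treated libraries lay further apart than in CPM. On FPKM its adjusted p was 0.269.

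The 10 genes of mitotic entry went both ways, with 2 lower, 2 higher and a median log2 fold change of -0.002. These shares were close to those of all genes tested, 18.0% lower and 18.0% higher. Within the members' range of level 29.4% were lower and 16.9% higher. Cdk1, the kinase that drives entry, stood at 142 and 138 CPM in DMSO and at 117 and 119 CPM in GDC0449 (log2 -0.25, SE 0.06, adjusted p = 0.00162). The groups did not overlap. Its partner cyclin B1 (Ccnb1) showed no such separation, with 106 and 95 CPM in DMSO and 102 and 100 CPM in GDC0449 (log2 0.00, 95% interval -0.14 to 0.14). Cyclin B2 (Ccnb2, ENSMUSG00000032218, chromosome 9, 70407692 to 70421547), the less abundant of the pair at 14.7 against 28 FPKM in DMSO, had the highest fold change of the list. It stood at 34.2 and 34.2 CPM in DMSO and at 42.6 and 45.1 CPM in GDC0449 (log2 0.36, SE 0.08, adjusted p = 0.000625). Whether the 2 cyclins differ in response was not tested.

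Cdc25b, a phosphatase that activates Cdk1, was also higher, with 68.4 and 69.9 CPM in DMSO and 93.0 and 82.2 CPM in GDC0449 (log2 0.34, adjusted p = 0.000177). It passed in 1 of the 4 fits that leave out a library. Its paralog Cdc25c did not pass, at 33.8 and 33.2 CPM in DMSO and 32.0 and 31.6 CPM in GDC0449 (adjusted p = 0.558). Aurka, the Aurora kinase of spindle poles, was lower, at 81.9 and 78.0 CPM in DMSO and 68.1 and 69.2 CPM in GDC0449 (log2 -0.22, adjusted p = 0.0129). Plk1, the Polo-like kinase that helps trigger entry, overlapped between groups, at 39.4 and 35.1 CPM in DMSO and 44.2 and 39.3 CPM in GDC0449 (log2 0.16, 95% interval -0.01 to 0.34). Ccna2 (cyclin A2, with 12.5% of its exonic bases shared with Exosc9 on the other strand), Melk, a kinase of dividing cells, and Cdca3, which promotes degradation of the inhibitor Wee1, did not pass, with log2 fold changes of -0.11, 0.08 and -0.01.

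Among 8 genes of the spindle checkpoint and of anaphase, 4 were lower and 2 higher. Over all genes tested 18.0% were lower and 18.0% higher, and within the members' range of level 29.4% and 16.9%. Bub1, a checkpoint kinase at kinetochores, stood at 102 and 116 CPM in DMSO and at 88.4 and 89.7 CPM in GDC0449 (log2 -0.29, SE 0.07, adjusted p = 0.000799). The checkpoint kinase Ttk and the Cdc20 inhibitor Mad2l1 were lower by less, with log2 fold changes of -0.21 and -0.20, as was separase (Espl1), the protease that cleaves cohesin, at -0.19. Cdc20 (ENSMUSG00000006398, chromosome 4, 118432901 to 118437352), the activator of the anaphase-promoting complex, was higher. Its libraries stood at 156 and 135 CPM in DMSO and at 181 and 162 CPM in GDC0449 (log2 0.24, SE 0.07, adjusted p = 0.00478). The replicates of each group lay almost as far apart as the groups did, and the highest DMSO library was just under the lowest GDC0449 library. Bub1b, which encodes the checkpoint protein BubR1, was higher by 1.14-fold (adjusted p = 0.0113), a call that was lost without any 1 of the libraries (adjusted p = 0.0841 to 0.188). Securin (Pttg1), the inhibitor of separase, stood at 46.0 and 47.3 CPM in DMSO and 52.2 and 48.7 CPM in GDC0449 and did not pass (adjusted p = 0.281). Ube2c, the ubiquitin-conjugating enzyme of the anaphase-promoting complex, had a log2 fold change of -0.11 and did not pass either; 22.8% of its exonic bases are shared with Tnnc2 on the other strand.

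The chromosomal passenger complex, which corrects kinetochore attachments and later guides cytokinesis, had 3 of its 4 genes lower and none higher, with a median log2 fold change of -0.28. For comparison, 18.0% of all genes tested were lower, and 29.4% of those within the members' range of level. Incenp (ENSMUSG00000024660, chromosome 19, 9872296 to 9899551), the scaffold of the complex, stood at 256 and 245 CPM in DMSO and at 200 and 191 CPM in GDC0449 (log2 -0.36, SE 0.06, adjusted p = 6.58e-06). Survivin (Birc5) stood at 75.2 and 78.5 CPM in DMSO and at 62.5 and 64.4 CPM in GDC0449 (log2 -0.28, adjusted p = 0.00205). Borealin (Cdca8) had a log2 fold change of -0.28 as well (adjusted p = 0.000588). The kinase of the complex, Aurora B (Aurkb), did not pass, at 85.5 and 79.0 CPM in DMSO and 77.4 and 74.3 CPM in GDC0449 (log2 -0.12, adjusted p = 0.204). In all 4 genes both GDC0449 libraries lay below both DMSO libraries. The same held for 32.2% of all genes tested and 45.7% of those within the members' range of level.

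**Figure D4:**
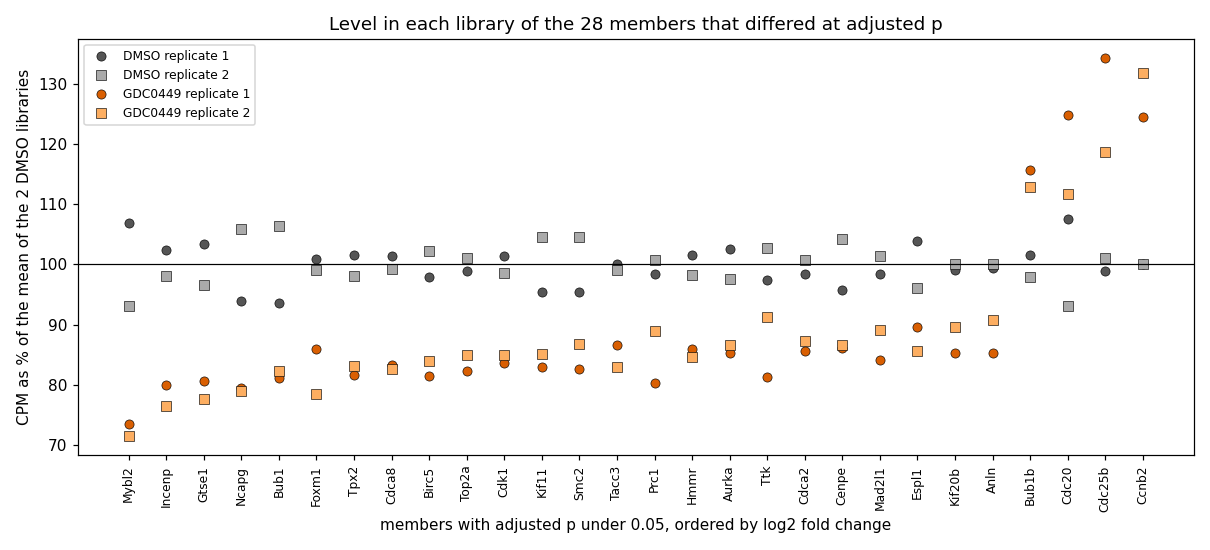
Level of the 28 members that passed the adjusted p in each of the 4 libraries (vertical axis, CPM as percent of the mean of both DMSO libraries), ordered by log2 fold change. In the 24 lower members both GDC0449 libraries lie below both DMSO libraries, and in Bub1b, Cdc20, Cdc25b and Ccnb2 above.

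Of the 10 spindle kinesins 2 were lower, none was higher and 8 did not pass, with a median log2 fold change of -0.10. The lower share was close to the 18.0% of all genes tested and under the 29.4% within the members' range of level. The median of genes within that range was -0.06. Kif11 (Eg5), which pushes the spindle poles apart, stood at 185 and 203 CPM in DMSO and at 161 and 165 CPM in GDC0449 (log2 -0.25, SE 0.06, adjusted p = 0.00152). Kif15, a kinesin that can share that task, had a log2 fold change of -0.11 and overlapping groups. Kif20b, a kinesin of cytokinesis, was lower at -0.19 (adjusted p = 0.0239). Kif20a, its relative, had the highest value among the kinesins, at 116 and 110 CPM in DMSO and 120 and 120 CPM in GDC0449 (log2 0.08, adjusted p = 0.363), and 29.3% of its exonic bases are shared with Cdc23 on the other strand. The chromokinesin Kif4 stood at 77.7 and 79.7 CPM in DMSO and at 67.8 and 79.4 CPM in GDC0449, so that the treated libraries spanned the controls' lower edge (log2 -0.10, adjusted p = 0.335). Kif18b, of astral microtubules, had the widest gap between DMSO replicates of all members, a log2 difference of 0.29, and did not pass (adjusted p = 0.0648). Kif23, Kif2c, Kif14 and Kif18a had log2 fold changes between -0.13 and 0.03.

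Spindle microtubule proteins had 5 of 8 members lower and none higher, with a median log2 fold change of -0.23. That is 62.5% lower, against 18.0% of all genes tested and 29.4% within the members' range of level. Gtse1, a microtubule-binding protein that accumulates in G2, had the lowest, with 71.1 and 66.4 CPM in DMSO and 55.5 and 53.4 CPM in GDC0449 (log2 -0.34, SE 0.07, adjusted p = 0.000303). Tpx2, which activates Aurora A on the spindle, stood at 320 and 309 CPM in DMSO and at 257 and 262 CPM in GDC0449 (log2 -0.28, SE 0.06, adjusted p = 0.000216). Tacc3, which bridges spindle microtubules, Prc1, which bundles them at the midzone, and Hmmr, another spindle microtubule protein, were lower at -0.24, -0.24 and -0.23. The other 3, Nusap1, Dlgap5 and Knstrn, lay at 0.00, 0.01 and 0.08 with overlapping groups. Knstrn, the highest of the 8, stood at 91.7 and 82.7 CPM in DMSO and 87.0 and 97.3 CPM in GDC0449.

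Of 7 centromere and kinetochore genes 1 passed, as lower. This share of 14.3% was under the 18.0% of all genes tested and the 29.4% within the members' range of level. Cenpe, the kinetochore motor, stood at 158 and 172 CPM in DMSO and at 142 and 143 CPM in GDC0449 (log2 -0.21, SE 0.06, adjusted p = 0.00978). Cenpa, the histone H3 variant that marks centromeres, stood at 115 and 109 CPM in DMSO and at 102 and 104 CPM in GDC0449 and did not pass (log2 -0.12, adjusted p = 0.167). The 3 genes of the Ndc80 complex, which binds microtubules at the kinetochore, had overlapping groups throughout. Ndc80 stood at 57.2 and 56.3 CPM in DMSO and at 56.2 and 61.2 CPM in GDC0449 (log2 0.05), and Nuf2 and Spc25 had log2 fold changes of -0.03 and -0.08. Cenpf, of the outer kinetochore, lay at 0.02, and Cenpi, of the inner kinetochore, at -0.19 without passing (adjusted p = 0.0987).

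Condensin and other chromosome structure genes had 4 of 8 lower and none higher, and genes of the one complex did not all pass. The lower share was above the 18.0% of all genes tested and the 29.4% within the members' range of level. The condensin I subunit Ncapg stood at 95.8 and 108 CPM in DMSO and at 81.1 and 80.6 CPM in GDC0449 (log2 -0.33, SE 0.07, adjusted p = 0.000169), and shares 13.4% of its exonic bases with Lcorl on the other strand. Smc2, a core ATPase of condensin, stood at 246 and 270 CPM in DMSO and at 213 and 224 CPM in GDC0449 (log2 -0.24, adjusted p = 0.00192). Its partner Smc4 overlapped between groups, at 277 and 297 CPM in DMSO and 265 and 288 CPM in GDC0449 (log2 -0.05, 95% interval -0.18 to 0.07). Ncapd2, another condensin I subunit, stood at 532 and 504 CPM in DMSO and at 528 and 501 CPM in GDC0449 (log2 -0.01), the replicates differing more than the groups. Ncaph, the subunit that closes the ring, had the highest value of these 8, at 94.3 and 91.5 CPM in DMSO and 88.2 and 99.9 CPM in GDC0449 (log2 0.02). Whether the subunits differ from one another in response was not tested.

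Top2a and Mki67, both used as markers of dividing cells, had the most reads of the list with Racgap1, and only Top2a of the 3 passed. Top2a (DNA topoisomerase II alpha) stood at 744 and 760 CPM in DMSO and at 619 and 639 CPM in GDC0449 (log2 -0.26, SE 0.06, adjusted p = 0.000335). Mki67 (Ki-67, the protein that coats mitotic chromosomes) stood at 904 and 903 CPM in DMSO and at 863 and 873 CPM in GDC0449, a log2 fold change of -0.06 (95% interval -0.17 to 0.06, adjusted p = 0.461). Its groups did not overlap, and the fitted difference was -3.93% of the DMSO level. Cdca2, a phosphatase subunit on anaphase chromatin, was lower at -0.21.

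Of the 3 cytokinesis genes 1 was lower (33.3%), against 18.0% of all genes tested and 29.4% within the members' range of level. Anillin (Anln), a scaffold of the contractile ring, stood at 182 and 183 CPM in DMSO and at 156 and 166 CPM in GDC0449 (log2 -0.18, SE 0.06, adjusted p = 0.0228). Ect2, the exchange factor that activates RhoA, stood at 118 and 122 CPM in DMSO and at 107 and 118 CPM in GDC0449 (adjusted p = 0.330). Racgap1, of the centralspindlin complex, stood at 759 and 741 CPM in DMSO and at 822 and 788 CPM in GDC0449 (log2 0.10, 95% interval -0.01 to 0.22, adjusted p = 0.162).

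Per length, the members spanned a wide range of levels. On the deposited FPKM scale Racgap1 was highest, at 166 and 167 in DMSO and 183 and 178 in GDC0449, well above Top2a at 98.7 and 92.7 in DMSO. Ube2c and Ncapd2 followed with means of 75.7 and 69.9 FPKM in DMSO and Mki67 with 59.4. Kif18a, Cenpi and Kif14 were lowest, with means of 7.96, 6.78 and 5.11 FPKM. Members in the middle of this order lay close together, and many neighbours did not differ beyond the gap between their replicates.

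**Figure D5:**
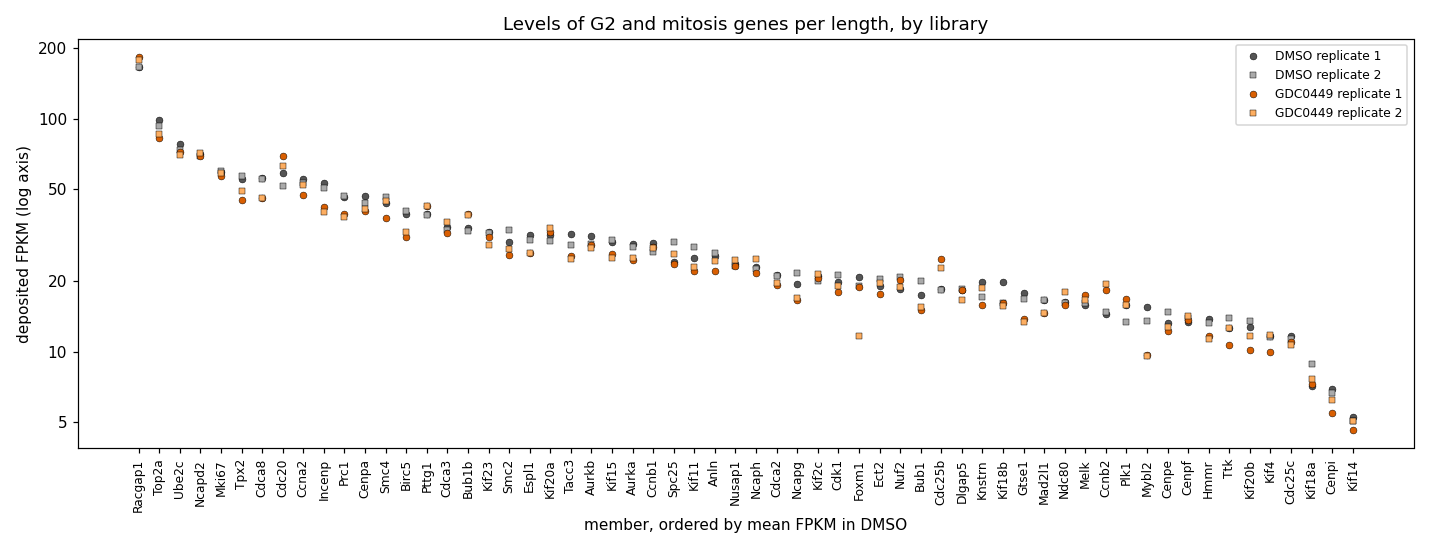
Deposited FPKM of the 60 members (vertical log axis) in each of the 4 libraries, ordered by their mean in DMSO. Racgap1 is highest and Kif14 lowest, and GDC0449 replicate 2 of Foxm1, at 11.7 FPKM, stands apart from the other libraries of that gene.

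Replicates of one group differed less than the larger group differences. The median absolute log2 difference between the replicates was 0.07 over the members in DMSO and 0.06 in GDC0449, against 0.08 and 0.06 in genes within the members' range of level. As a list the members shifted little between replicates, by a median of -0.02 from DMSO replicate 1 to 2 and 0.02 from GDC0449 replicate 1 to 2. Measured from the DMSO mean, their median lay at -0.14 in GDC0449 replicate 1 and -0.08 in replicate 2. The median of genes within the members' range of level lay at -0.06 in each of these libraries.

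Other genes of mitosis, in 6 lists of 109 genes, leaned the same way. At adjusted p alone (edgeR) 48 were lower, 44.0% against 18.0% of all genes tested and 29.4% within the members' range of level. None was higher, against 18.0% and 16.9%, and the median log2 fold change was -0.16. An unadjusted p under 0.05 was found in 56 of the 109, and in 6786 of all 15472 genes tested. By list, 13 of 30 further kinetochore genes were lower, 17 of 27 genes of the spindle pole and spindle, 8 of 18 regulators of G2, 5 of 14 genes of cohesin and its protectors, 3 of 17 of the anaphase-promoting complex, and 2 of 3 of condensin II. In each of the 6 lists none was higher. The lower share of the anaphase-promoting complex list was 17.6%, no more than the 18.0% of all genes tested. That share was also under the 29.4% within the members' range of level. The lower shares of the other lists lay above both of these backgrounds. The range behind the 29.4%, 31.4 to 886 CPM, is the members' own, while the 109 genes spanned 3.23 to 1700 CPM. It is therefore not matched to the level of these lists.

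Past both thresholds 3 of the 109 fell, which is 2.75% against 3.80% of all genes tested. Cenpq, of the inner kinetochore, fell from 47.3 ± 0.817 to 24.6 ± 0.347 CPM (SD, n = 2; log2 -0.94, adjusted p = 9.81e-13). Pkmyt1, a kinase that inhibits Cdk1, fell from 45.4 ± 7.35 to 27.9 ± 0.627 CPM (log2 -0.71, adjusted p = 1.79e-08), and lay under the fold threshold without DMSO replicate 1, at -0.53. Haus5, an augmin subunit, was scarce, at 3.91 ± 0.875 and 2.56 ± 0.0647 CPM, and its call (adjusted p = 0.0325) was lost without any 1 library (adjusted p = 0.0719 to 0.302).

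DNA replication genes, which act in S phase, were compared as the most alike program, from a list of 38. Of these 26 were lower and 0 higher at adjusted p alone. That is 68.4% lower, against 40.0% of the G2 and mitosis genes and 18.0% of all genes tested. Among genes within the members' range of level, 31.4 to 886 CPM, the lower share was 29.4%. That range is not matched to the replication genes, which spanned 2.0 to 519 CPM. The median log2 fold change of the replication genes was -0.27, against -0.11 in the G2 and mitosis genes. Both GDC0449 libraries lay below both DMSO libraries in 33 of the 38 (86.8%). The same held for 32.2% of all genes tested and 45.7% within the members' range of level. The difference between the programs was not tested. Past both thresholds 1 replication gene fell (2.63%, against 3.80% of all genes tested). It was Cdc45, which unwinds DNA with the Mcm complex (edgeR, log2 -0.60, adjusted p = 3.96e-10). It lay just past the fold threshold, and under it without DMSO replicate 1 (-0.54), with upper-quartile scaling or the 5 CPM filter (-0.57 each) and on log2(FPKM + 1) (-0.53).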

How the data were processed

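RNA was sequenced from 4 libraries, 2 per group. Per the submitters' processing notes and design text, the authors trimmed reads with Trim Galore, mapped them to mm10 with HISAT2 and counted reads per gene with HTSeq 0.11.1; the deposited counts are raw. The authors also deposited FPKM, which per the series' design text rests on reads, gene length and depth. Neither the annotation release nor the strand setting of the counting was stated, so values of the 7 members that share over 10% of their exonic bases with another gene (Ccna2, Cdc25c, Ube2c, Kif20a, Kif4, Prc1 and Ncapg) are uncertain. Symbols came from GENCODE M21, which matched 55394 of 55573 identifiers; 6 rows naming no gene, with 27.7% to 29.8% of reads in unassigned classes, were left out.

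Counts were fitted over all genes with edgeR 4.0.16 (R 4.3.3; TMM scaling, default filter, quasi-likelihood test, group as the only term) and p-values adjusted by Benjamini-Hochberg. A gene passed at an adjusted p under 0.05, with or without a 1.5-fold threshold as stated; "lower" and "higher" of members mean the adjusted p alone. The standard error is the log2 fold change over the root of its F statistic. Members, role groups and lists were chosen with earlier results of these data known. Values in every library were given for a panel of 25 members and the lowest and highest member of each of 9 role groups, whatever their values. Alternatives were other scalings, filters, DESeq2 1.42.0, limma-voom 3.58.1, limma on log2(FPKM + 1), a replicate block and leaving out each library. With 2 libraries per group no sample could be tested as an outlier.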

Additional observations from a re-analysis of the deposited data

How the results depend on the processing

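No member passed both thresholds under the 12 alternative settings for which this was counted. A further fit, limma on log2(FPKM + 0.1), was not counted in this way. None of the 32 members with values in every library changed direction with a call. For these 32 members and 12 settings, 57 comparisons lost their call and 3 gained one, against 324 that did neither. Genes past both thresholds numbered 1165 with the filter at 5 CPM and 840 on log2(FPKM + 1), against 1921, and 852 to 1711 when 1 library was left out. Lower members at adjusted p numbered 15 with no filter, 6 on FPKM and 3 to 14 with a library left out, and higher members 2, 2 and 0 to 3. The members' median was -0.083 with the 5 CPM filter, -0.077 with upper-quartile scaling, and -0.147 to -0.086 with a library left out. With upper-quartile scaling, which raised the median of all genes to 0.04, role medians were -0.12 (checkpoint), -0.10 (condensin), -0.054 (cytokinesis), -0.071 (kinesins), -0.24 (passenger) and -0.20 (spindle proteins). With the 5 CPM filter they were -0.12 (checkpoint), -0.06 (cytokinesis), -0.25 (passenger) and -0.21 (spindle proteins), and on FPKM -0.13 (checkpoint) and -0.48 (transcription factors). With a library left out, role medians ranged from -0.138 to -0.002 (centromere), -0.170 to -0.101 (checkpoint), -0.172 to -0.123 (condensin), -0.157 to -0.026 (cytokinesis), -0.088 to 0.081 (entry), -0.154 to -0.045 (kinesins), -0.243 to -0.204 (spindle proteins), -0.288 to -0.271 (passenger), -0.440 to -0.318 (transcription factors). With the replicate number as a replicate block, 29 members were lower and 6 higher (58.3%), while the share of all genes that passed rose from 35.9% to 44.1%; the labels do not say that a number marks a shared culture, and deviations of same-numbered libraries correlated at 0.0351 over all genes tested and 0.214 over genes at a mean of at least 5 CPM, which include every member. Members had 524 to 18451 reads in a library, and standard errors were larger in those with fewer reads, 0.09 in Cenpi against 0.06 in Mki67.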
